A study of Mus musculus with 6 samples.

Results

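Heterotrimeric G proteins carry signals from receptors at the cell surface to enzymes inside the cell, and 10 genes for their subunits were examined in mouse macrophages that had been given medium from lung macrophages. The genes are Gnai1, Gnai2, Gnai3, Gnaq, Gna11, Gna15, Gna12, Gna13, Gnas and Gnb1, out of 21959 genes in the deposited table. They were chosen by gene symbol, with their levels and their difference between the media in these libraries already known. Their differences between the media are therefore given as a description, with no test.

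The recipients were primary bone marrow-derived macrophages of wild-type mice, which had spent 24 h in a mixture of equal parts fresh and conditioned medium. Lung alveolar macrophages, taken from mice aged 8 to 12 weeks, had conditioned that medium over 48 h. In the libraries P1, P2 and P3 the donor cells were HTR2C+ and in N1, N2 and N3 they were HTR2C-, HTR2C being the serotonin receptor 2C. All recipients thus shared genotype, dilution and time, and a recipient without conditioned medium is not analysed here. Nothing in the labels tells separate cultures, animals or medium batches apart, so the spread among 3 libraries, and every p-value built on it, may be technical. The labels also do not say how many donor animals a batch of medium came from.

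A heterotrimeric G protein is an alpha subunit that binds GDP or GTP, held at the membrane with a paired beta and gamma subunit. An activated receptor makes the alpha subunit exchange GDP for GTP, after which alpha and the beta-gamma pair act on separate effectors until the GTP is hydrolysed. Alpha subunits fall into the classes Gi, Gq, G12 and Gs. Gi lowers cyclic AMP and serves most chemoattractant receptors of macrophages, Gs raises cyclic AMP, Gq opens calcium stores through phospholipase C beta, and G12 class subunits switch on the GTPase RhoA. The receptor HTR2C itself signals through Gq.

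The tail of an alpha subunit touches the receptor and helps to set which receptors it serves, so the last 36 coding bases of the 9 alpha genes are shown, with the last 15, which encode the final residues, in capitals. They were read 5′ to 3′ from the GENCODE M21 transcripts (GRCm38), and the stop codon is left out.
Gnai1 (chr5:18267022-18267057, minus strand): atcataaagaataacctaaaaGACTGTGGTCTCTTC
Gnai2 (chr9:107615638-107615673, minus strand): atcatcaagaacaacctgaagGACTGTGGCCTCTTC
Gnai3 (chr3:108109425-108109460, minus strand): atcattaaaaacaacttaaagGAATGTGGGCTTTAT
Gnaq (chr19:16383356-16383391, plus strand): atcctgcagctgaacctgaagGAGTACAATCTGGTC
Gna11 (chr10:81530798-81530833, minus strand): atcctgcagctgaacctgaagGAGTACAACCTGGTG
Gna15 (chr10:81502882-81502917, minus strand): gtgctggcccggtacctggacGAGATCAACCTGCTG
Gna12 (chr5:140760552-140760587, minus strand): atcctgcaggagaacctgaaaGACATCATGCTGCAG
Gna13 (chr11:109396448-109396483, plus strand): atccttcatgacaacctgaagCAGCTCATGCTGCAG
Gnas (chr2:174346350-174346385, plus strand): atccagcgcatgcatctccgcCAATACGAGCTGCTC

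Of these 9 genes, those of the Gi class and no others had a TGT codon in the capitals, which encodes the cysteine that pertussis toxin modifies. Within the last 15 bases Gnai2 differed from Gnai3 at 5 positions and from Gnai1 at 1, while Gnaq differed from Gna11 at 2. Over the aligned coding sequence, identity was 74.1% between Gnai2 and Gnai3, 80.5% between Gnaq and Gna11 and 69.3% between Gna12 and Gna13. The longest run of identical bases was 22 for Gnai2 and Gnai3 and 38 for Gnaq and Gna11. How reads that match several genes were counted is not given in the sources used here, so the split of counts between close relatives keeps that uncertainty.

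Levels are compared between genes on the deposited FPKM scale, which divides the count by gene length and by the library total. On that scale Gapdh, a glycolysis gene that is abundant in most cells, was at 2.04 to 4.02 FPKM with HTR2C-positive and 0.754 to 1.98 FPKM with HTR2C-negative medium, on 40 to 258 counts. With the counting rules not given, levels of different genes are therefore to be compared with caution. Gnb1, the beta subunit gene, stood highest at 414 to 544.5 FPKM over the 6 libraries. Among the alpha genes, Gnai3 came first at 52.4 to 104 FPKM and Gnaq second at 32.9 to 50.8, and these ranges did not overlap. Gnai2 at 17.1 to 43.95 and Gna13 at 18.0 to 28.1 FPKM overlapped with each other, and Gnai2 also overlapped with Gnaq.

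Every other alpha gene was far lower. Gna15 had 2.38 to 6.89, Gna11 0.532 to 3.12 and Gna12 0.729 to 1.86 FPKM, and the range of each overlapped with that of the next. Gnas, the Gs gene, was listed at 0.0565 to 0.134 FPKM. Gnai1 was listed at 0 to 0.0745 FPKM. The most abundant gamma subunit genes, Gng5 at 145 to 193.5 and Gng12 at 104 to 119 FPKM, lay between Gnb1 and Gnai3, with Gng12 just touching the highest Gnai3 value.

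**Figure D1:**
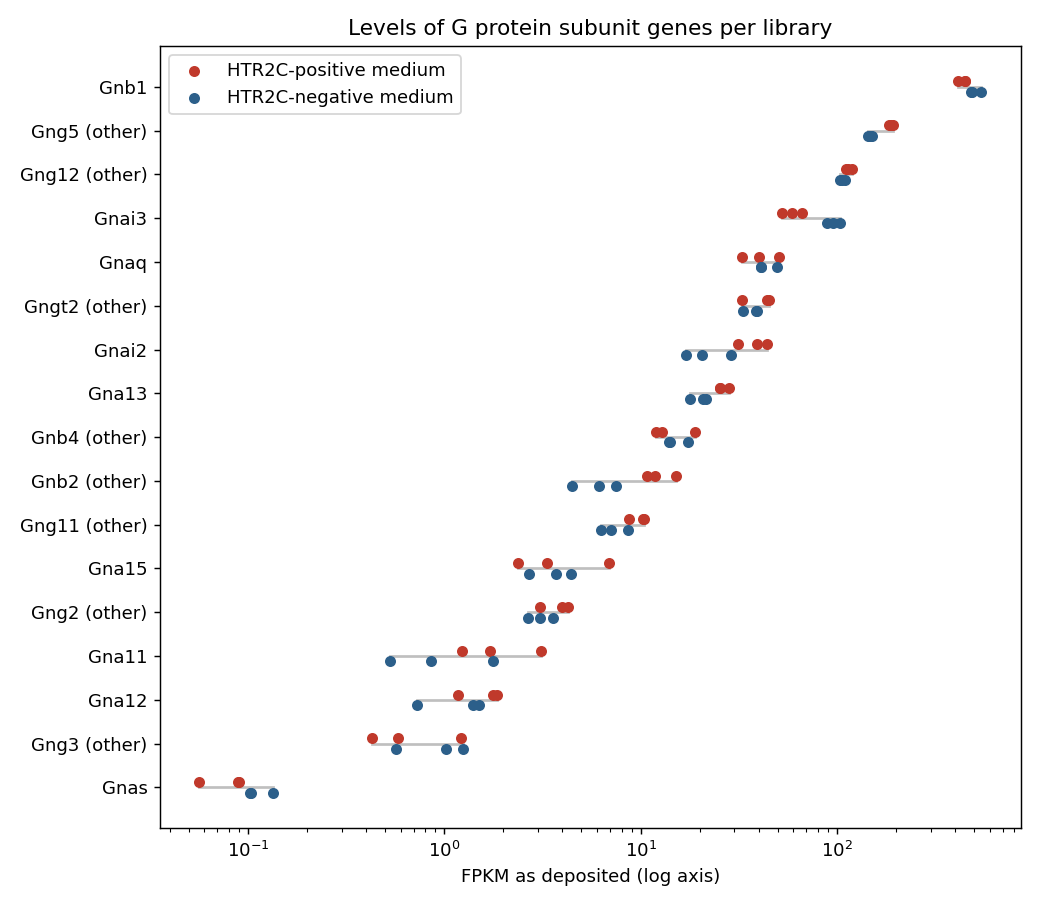
Deposited FPKM (log axis) of the 9 examined genes tested for the medium and of other tested alpha, beta and gamma genes from Gng3 upwards, one row per gene, ordered by the median of 6 libraries. Points are libraries and the grey line spans them, with HTR2C-positive medium in red and HTR2C-negative medium in blue. Gnb1 is at the top and Gnas at the bottom.

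Across the whole table, edgeR's quasi-likelihood test with Benjamini-Hochberg adjustment found an adjusted p under 0.05 in 0 of 10177 tested genes (0%), the lowest being 0.0616. By unadjusted p under 0.05, 7.9% of tested genes had higher and 8.71% lower values with HTR2C-positive medium, and limma-voom also called 0. DESeq2 called 394 of 6823 genes with an adjusted p (5.77%). Library totals were 12843971 to 16031723 counts, and a count of 0 allows up to 3 counts, or 0.187 to 0.234 CPM, for counting error only. Fold changes followed the GC content of transcripts. For each library, log2 CPM minus the gene's mean over the 6 libraries was fitted against GC. The slopes per 10 percentage points of GC were 0.15 to 0.27 in P1 to P3 and -0.34 to -0.04 in N1 to N3. Their signs are thus relative to the mean of the libraries. Because these slopes separate the groups, fold changes are also given with each library's GC and length trend removed, and the trend and the medium cannot be told apart.

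Macrophage markers were abundant in both groups. The sum of 8 macrophage markers was 19440 to 22750 CPM with HTR2C-positive and 20050 to 22320 CPM with HTR2C-negative medium, and all 8 were detected. Csf1r, the receptor for the macrophage growth factor, had a log2 fold change of 0.63 (edgeR adjusted p = 0.141), Adgre1 one of -0.08 and Itgam one of 0.11. With the trend removed these were 0.35, 0.01 and 0.11. Htr2c had 0 counts in all 6 libraries.

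Other cell types left smaller sums. For 12 neutrophil markers the sum was 1124 to 1416 CPM with HTR2C-positive and 954 to 1177 CPM with HTR2C-negative medium, with the defining genes Ly6g and Cxcr2 at 0. Of 9 tested neutrophil markers 8 had a positive log2 fold change, with a median of 0.46 and 0.24 with the trend removed. By unadjusted p 3 were higher and without overlap, namely Camp at 0.53, Csf3r at 0.46 and S100a9 at 0.36. Mmp8, at -0.48, was lower and also without overlap. With the trend removed these were 0.24, 0.22, 0.41 and -0.19 in the same order. Over all tested genes, 7.9% were higher and 8.71% lower by unadjusted p, and 10.9% higher and 11.5% lower without overlap. None of the neutrophil markers passed the edgeR adjustment, and S100a9 was named after its values were seen. Lymphocyte markers summed to 2.12 to 3.64 against 1.008 to 1.86 CPM and did not overlap. Mast cell and basophil markers summed to 9.02 to 12.0 against 11.6 to 15.2 CPM (Mcpt4 and Tpsb2 at 0), fibroblast markers to 63.3 to 78.7 against 59.4 to 69.7, alveolar macrophage markers to 134 to 151 against 138 to 145 (Krt79 at 0) and dendritic cell markers to 1.83 to 2.18 against 0.884 to 2.29 CPM. The part of these cells in the values of the subunit genes was not tested.

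Of the 10 genes, 9 passed edgeR's filter on low counts and Gnai1 did not. On TMM-scaled CPM, Gnai2 had higher values in every library with HTR2C-positive medium than in any with HTR2C-negative medium. Gnai3 and Gnas had lower values in the same sense, and the other 6 tested genes overlapped. Over all tested genes, 10.9% were higher and 11.5% lower without overlap. On deposited FPKM, Gna13 (25.3 to 28.1 against 18.0 to 21.5) and Gnb1 (414 to 449.5 against 479 to 544.5) did not overlap either. With scaling to total counts alone, 21.3% of all tested genes did not overlap. Of the 9 genes 5 had a positive and 4 a negative log2 fold change, the median was 0.06, set beside 0.02 over all tested genes, and 0 differed by more than 2-fold. All CPM values below are scaled with TMM factors, and fold changes are HTR2C-positive over HTR2C-negative medium.

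**Figure D2:**
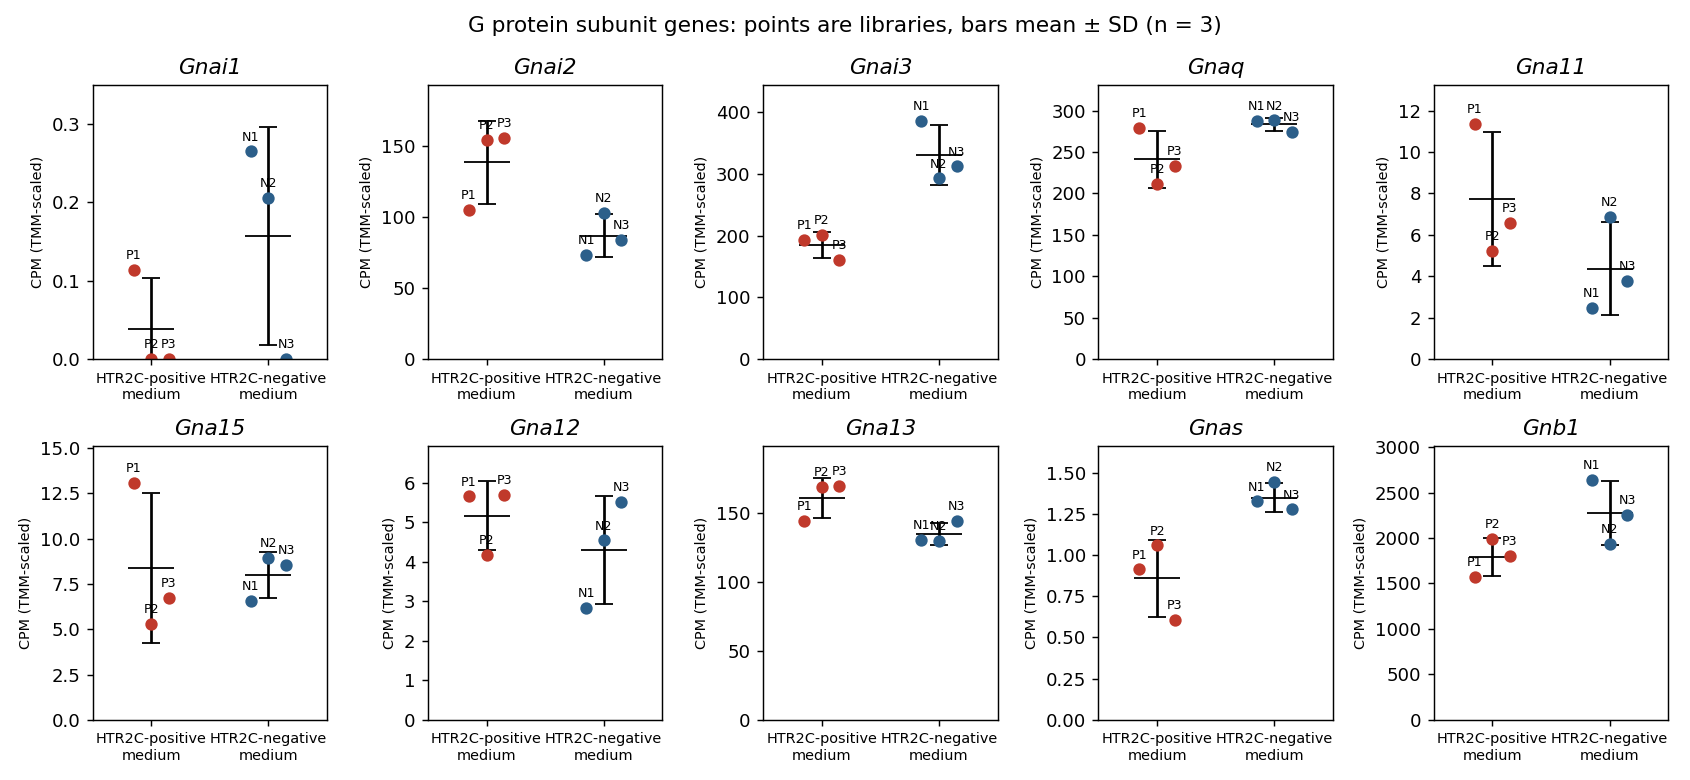
TMM-scaled CPM of the 10 genes, one panel and one linear axis from 0 per gene, with HTR2C-positive medium on the left and HTR2C-negative medium on the right. Points are libraries and bars are mean ± SD (n = 3). Gnai2 is higher and Gnai3 and Gnas lower on the left without overlap, and Gna11 and Gna15 have 1 high point, P1.

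The Gi genes Gnai2 and Gnai3 did not overlap between the media and differed in opposite directions. Gnai2 (ENSMUSG00000032562, chromosome 9, 107491324 to 107512566, GRCm39, minus strand) encodes the Gi alpha subunit that is prominent in leukocytes and in their chemotaxis. It had 105, 155 and 156 CPM in P1, P2 and P3, and 73.3, 103 and 84.2 CPM in N1, N2 and N3. The groups did not overlap, although P1 and N2 lay close together. The means were 139 ± 29.1 CPM with HTR2C-positive and 86.8 ± 15.1 CPM with HTR2C-negative medium (SD, n = 3 each), a log2 fold change of 0.67 (SE 0.19). Removing the trend lowered it to 0.32 (SE 0.19). In such bulk samples, fewer cells of a type and less RNA per cell cannot be told apart.

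Gnai3 (ENSMUSG00000000001, chromosome 3, 108014596 to 108053462, minus strand) encodes the other Gi alpha subunit of macrophages. Its values were 193, 201 and 161 CPM in P1, P2 and P3, and 385.5, 293 and 312 CPM in N1, N2 and N3. Every library with HTR2C-positive medium was thus below every library with HTR2C-negative medium, with a wide gap between the groups. The means were 185 ± 21.4 and 330.2 ± 48.8 CPM, and the log2 fold change was -0.84 (SE 0.16), a fold of 0.56. It was -0.54 (SE 0.14) with the trend removed. Transcript GC content was 41.7% for Gnai3 and 56.7% for Gnai2, which lie on opposite sides of that trend. Leaving out any 1 library kept the log2 fold change of Gnai2 between 0.56 and 0.86 and that of Gnai3 between -0.91 and -0.71.

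Gnai1 (ENSMUSG00000057614, chromosome 5, 18470133 to 18565353, minus strand), the Gi gene best known from brain, was at the limit of detection. It had 2, 0 and 0 counts in P1, P2 and P3 and 3, 3 and 0 counts in N1, N2 and N3. No library exceeded the 3 counts that a count of 0 allows, so no fold is given.

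Within each library, the FPKM ratio of Gnai2 to Gnai3 sets the Gi genes against each other without any scaling between libraries. The ratio was 0.469, 0.665 and 0.839 in P1, P2 and P3, and 0.164, 0.304 and 0.233 in N1, N2 and N3. Gnai3 was the more abundant in all 6 libraries, and the ratio was higher in every library with HTR2C-positive medium. That separation follows from Gnai2 FPKM being higher and Gnai3 FPKM lower without overlap. The ratio restates the differences of these genes and is not a further finding. It averaged 0.658 ± 0.185 with HTR2C-positive and 0.234 ± 0.0698 with HTR2C-negative medium, and the means of the log2 ratio differed by 1.5, or 1.27 to 1.72 with any 1 library left out. With the trend taken out, the ratios were 0.343, 0.548 and 0.685 in P1, P2 and P3 and 0.251, 0.315 and 0.298 in N1, N2 and N3. The groups still did not overlap, P1 and N2 came close, and the difference was 0.82 on the log2 scale.

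**Figure D3:**
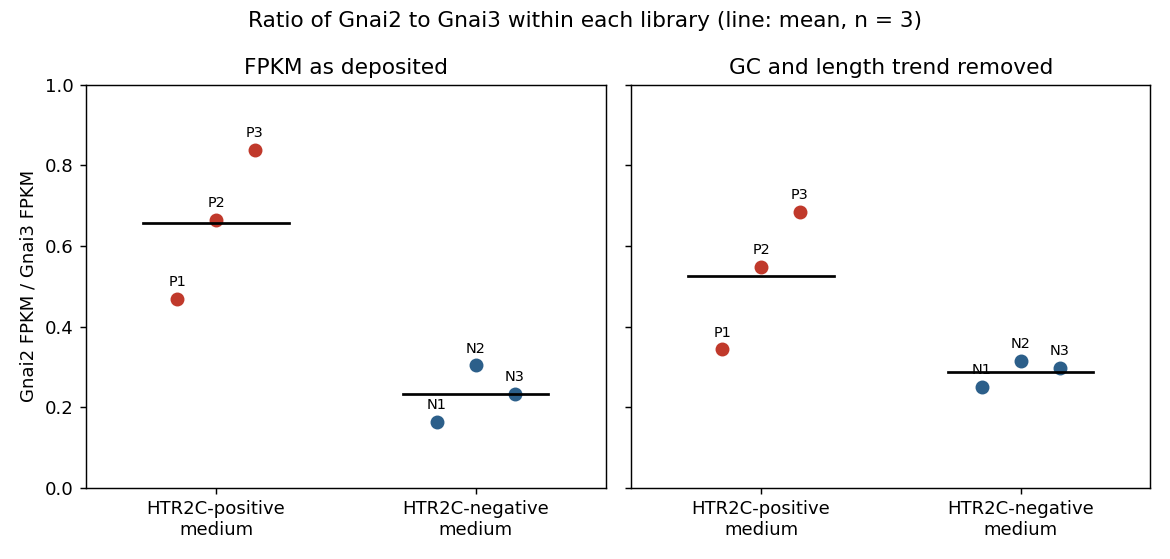
Ratio of Gnai2 to Gnai3 FPKM in each library (points) with the group mean (line, n = 3), HTR2C-positive medium left of HTR2C-negative medium. The left panel uses FPKM as deposited and the right panel has each library's GC and length trend removed. P1 to P3 lie above N1 to N3 in both panels, by less in the right one.

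Taken singly, the Gq genes did not separate the media. Gnaq (ENSMUSG00000024639, chromosome 19, 16110195 to 16364827, plus strand), the main Gq alpha gene here, had 279, 212 and 233 CPM in P1, P2 and P3, and 288, 288 and 274.5 CPM in N1, N2 and N3. P1 lay inside the narrow range of the HTR2C-negative libraries while P2 and P3 were below it. The log2 fold change was -0.23 (SE 0.15), and -0.17 with the trend removed.

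Gna11 (ENSMUSG00000034781, chromosome 10, 81364558 to 81381024, minus strand) encodes the widely expressed relative of Gnaq that couples to the same receptors. It had 11.4, 5.23 and 6.59 CPM in P1, P2 and P3, and 2.48, 6.88 and 3.76 CPM in N1, N2 and N3. P1 was the highest, but N2 exceeded P2 and P3. Its log2 fold change was 0.81 (SE 0.39), 0.45 without P1, 0.54 without N1, 1.30 without N2 and 0.42 with the trend removed. Within each library, the FPKM ratio of Gna11 to Gnaq was 0.0614, 0.0373 and 0.0427 in P1, P2 and P3. In N1, N2 and N3 it was 0.0130, 0.0360 and 0.0207. This ratio did not overlap between the media, but P2 and N2 were close. Transcript GC content was 57.2% for Gna11 and 46.9% for Gnaq, and the trend was not removed from this ratio.

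Gna15 (ENSMUSG00000034792, chromosome 10, 81338140 to 81360059, minus strand), the neighbour of Gna11 on the same strand, encodes a blood cell Gq subunit that accepts many kinds of receptor. It had 13.1, 5.29 and 6.71 CPM in P1, P2 and P3, and 6.54, 8.94 and 8.54 CPM in N1, N2 and N3. Apart from P1, the HTR2C-positive libraries lay in or below the range of the HTR2C-negative ones. The log2 fold change was 0.06 (SE 0.32), small beside its SE, and its sign was not stable. It was -0.40 without P1, -0.06 without N1 and -0.33 with the trend removed.

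The G12 class was carried by Gna13. Gna13 (ENSMUSG00000020611, chromosome 11, 109253657 to 109292195, plus strand), which links receptors to RhoA through its exchange factors, had 144.2, 168.9 and 169.6 CPM in P1, P2 and P3, and 130.9, 130.2 and 144.3 CPM in N1, N2 and N3. Only P1 and N3 overlapped, being nearly equal, and the other HTR2C-positive libraries were above all others. The log2 fold change was 0.25 (SE 0.14) and 0.34 (SE 0.13) with the trend removed.

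Gna12 (ENSMUSG00000000149, chromosome 5, 140744163 to 140816186, minus strand), its close relative, had 5.65, 4.17 and 5.68 CPM in P1, P2 and P3, and 2.83, 4.54 and 5.51 CPM in N1, N2 and N3. The groups overlapped, with N1 the lowest. The log2 fold change was 0.26 (SE 0.32), 0.04 without N1 and -0.17 with the trend removed. In GENCODE M21, 40.1% of the coding bases of Gna12 are also exons of Amz1 on the opposite strand, and 13.4% of those of Gna13 are exons of an antisense gene.

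Gnas (ENSMUSG00000027523, chromosome 2, 174126113 to 174188537, plus strand) encodes the Gs alpha subunit that activates adenylyl cyclase and is expressed in nearly all cells. It had 16, 16 and 10 counts in P1, P2 and P3, and 15, 21 and 19 counts in N1, N2 and N3, or 0.913, 1.06 and 0.605 against 1.33, 1.44 and 1.28 CPM. The CPM values did not overlap and were lower with HTR2C-positive medium, on 42 and 55 counts in all. For Gnas the log2 fold change was -0.65 (SE 0.55), and -1.11 with the trend removed. In GENCODE M21, 96.4% of the coding bases of Gnas overlap genes on the opposite strand, Gm20721 and Nespas, and Gm20721 was itself at 0 counts in all 6 libraries. The use of strand and of overlapping reads in counting is not given in the sources used here, so the level of Gnas is uncertain and the effect of the overlap on it was not tested.

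Gnb1 (ENSMUSG00000029064, chromosome 4, 155575818 to 155643726, plus strand) encodes the beta subunit that pairs with most gamma subunits. It had 1570.0, 1989 and 1803 CPM in P1, P2 and P3, and 2639, 1934 and 2251 CPM in N1, N2 and N3. P2 exceeded N2, so the groups overlapped, with N1 far above the rest. For Gnb1 the log2 fold change was -0.35 (SE 0.17), and -0.31 with the trend removed.

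Set against one another within a library, the alpha genes made up a different mixture of deposited FPKM in the 2 media. These shares were not computed with the GC and length trend removed. Gnas, whose level is uncertain, is in the sum as the Gs class at 0.033% to 0.066% over the 6 libraries. The shares therefore describe counted reads. Gi genes held 52.7%, 61.0% and 56.2% of the summed alpha FPKM in P1, P2 and P3, and 65.8%, 61.2% and 61.6% in N1, N2 and N3. The groups did not overlap, but P2 and N2 were close. Within Gi the mixture differed more, with Gnai3 at 30.6% to 36.6% of alpha FPKM with HTR2C-positive and 46.9% to 56.5% with HTR2C-negative medium, and Gnai2 at 16.8% to 25.6% and 9.27% to 14.3%.

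G12 class genes held 14.6%, 16.4% and 17.4% in P1, P2 and P3, and 10.1%, 11.3% and 12.6% in N1, N2 and N3, with no overlap. Gq class genes held 32.7%, 22.6% and 26.3%, against 24.0%, 27.4% and 25.75%, with overlap and with P1 highest. The mean share of Gq was 1.49 percentage points higher with HTR2C-positive medium, and 1.25 points lower without P1. Summed alpha FPKM was 186, 161.5 and 171.5 in P1, P2 and P3 and 184, 202 and 178 in N1, N2 and N3, and overlapped. Shares of 1 sum are tied to each other: a lower share of Gnai3 means a higher share for the others summed.

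**Figure D4:**
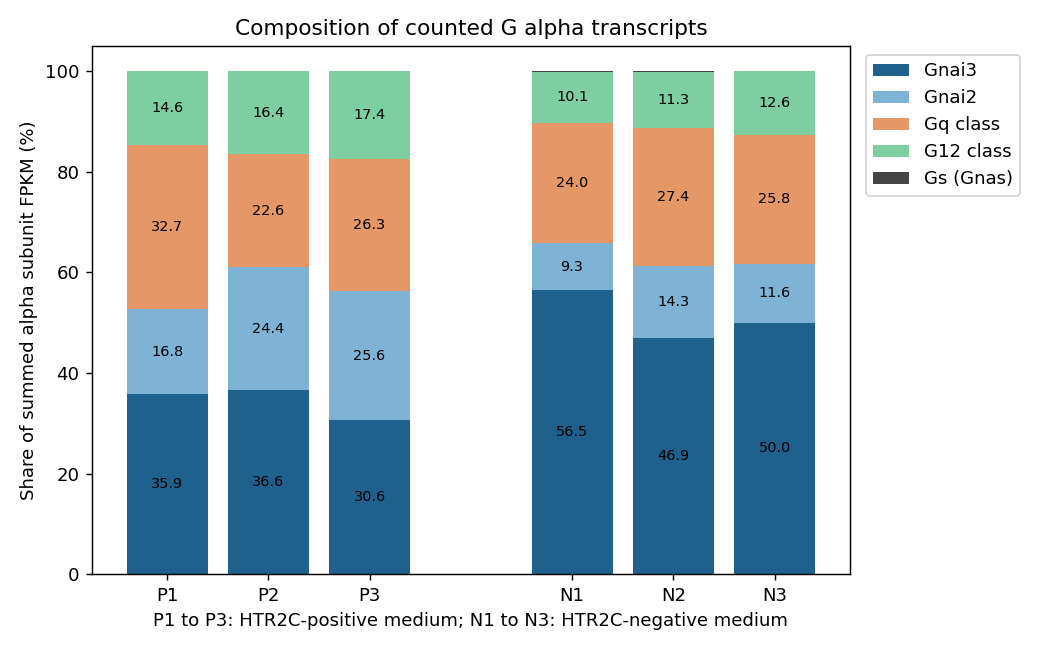
Share of the summed alpha subunit FPKM in each library, with P1 to P3 (HTR2C-positive medium) left of N1 to N3 (HTR2C-negative medium). FPKM is as deposited, without removal of the GC and length trend. Colours are Gnai3, Gnai2, the Gq class, the G12 class and Gs, and Gnai1 is too small to draw. Gnai3 is 30.6% to 36.6% on the left and 46.9% to 56.5% on the right.

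Another 23 alpha, beta and gamma genes were examined as part of the whole table. Of these, 10 passed the filter, 6 had no count in any library, 1 was higher by unadjusted p and 0 passed the adjustment. The 1 was Gnb2 (chromosome 5, 137526389 to 137531772), a second beta subunit gene. It had 32.6, 42.2 and 48.7 CPM in P1, P2 and P3, and 17.3, 24.1 and 22.45 CPM in N1, N2 and N3. The groups did not overlap, and the log2 fold change was 0.95 (SE 0.20, edgeR unadjusted p = 0.000351, adjusted p = 0.0805). It was 0.49 with the trend removed, and the GC content of Gnb2 is 59.95%.

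Gnb1 still held 93.3% to 94.7% of the summed beta FPKM with HTR2C-positive and 95.02% to 96.7% with HTR2C-negative medium. The ratio of Gnb2 to Gnb1 averaged 0.0289 ± 0.00435 with HTR2C-positive and 0.0121 ± 0.00370 with HTR2C-negative medium. The groups did not overlap, and the trend was not removed from this ratio. Gnb4, the next beta gene, had a log2 fold change of -0.20 (adjusted p = 0.563), and Gnb5, which pairs with RGS proteins, one of -0.11 on a few counts (adjusted p = 0.964). With the trend removed they were at -0.08 and -0.17.

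Among gamma genes, whose products anchor the beta subunit to the membrane by a lipid, Gng5 had 475, 529 and 488 CPM in P1, P2 and P3, and 454, 395 and 440 CPM in N1, N2 and N3. The media did not overlap, yet the log2 fold change was small at 0.21 (edgeR adjusted p = 0.486), and it was 0.58 with the trend removed. Gng12 and Gngt2 were at log2 fold changes of -0.03 and -0.001, Gng11 at 0.29, Gng2 at 0.14 and Gng3 at -0.47, with adjusted p from 0.57 to 0.998. The trend-removed values were 0.20 for Gng12, -0.07 for Gngt2, 0.14 for Gng11, 0.33 for Gng2 and -0.60 for Gng3. Gnaz, a Gi class alpha gene that resists pertussis toxin, was at 0.92 (SE 0.82) on 2 to 20 counts per library, and at 0.65 with the trend removed. Gng10 was listed at 0 in all libraries, and 72.0% of its exon bases are shared with Gm20503 on the same strand.

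Genes that act on or under the subunits were listed by role, and in each list 0 genes passed the adjusted threshold. The lists were chosen with earlier results of these data known, and the genes named from each are mainly those with the smallest unadjusted p. Their counts and p-values are thus a description. The lists are read against the 7.9% higher and 8.71% lower of all tested genes by unadjusted p and the median of 0.02. For kinases and arrestins, which shut off activated receptors, all 6 tested genes had a positive log2 fold change, with a median of 0.59 and 0.37 with the trend removed, and 2 were higher by unadjusted p. Grk2, a kinase drawn to the membrane by beta-gamma, had 44.3, 41.7 and 46.3 CPM in P1, P2 and P3, and 17.7, 37.1 and 25.75 CPM in N1, N2 and N3. Its groups did not overlap, and the log2 fold change was 0.71 (edgeR adjusted p = 0.158). Grk3 had 0.68 (adjusted p = 0.207) and Arrb2, the beta-arrestin 2 gene, 0.47 (adjusted p = 0.31). With the trend removed Grk2 was at 0.30, Grk3 at 0.63 and Arrb2 at 0.18.

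RGS proteins speed GTP hydrolysis by alpha subunits. Of 8 tested RGS genes 1 was higher and 1 lower by unadjusted p, with a median of 0.03. Rgs14, which also binds Gi in its GDP form, had 37.8, 36.9 and 27.6 CPM in P1, P2 and P3, and 19.5, 27.2 and 22.8 CPM in N1, N2 and N3. Its groups were narrowly apart, at a log2 fold change of 0.56 (edgeR adjusted p = 0.186) that was 0.13 with the trend removed. Rgs18 had -0.67 (adjusted p = 0.25) and Rgs19 -0.28 (adjusted p = 0.347), which were -0.18 and -0.36 with the trend removed.

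Chaperones and non-receptor regulators gave 1 lower and 0 higher of 10 tested, with a median of -0.07 that was 0.04 with the trend removed. The 1 was Nucb2, a calcium-binding nucleobindin gene. It had 20.7, 25.35 and 24.8 CPM in P1, P2 and P3, and 48.7, 39.4 and 42.4 CPM in N1, N2 and N3. The groups were well apart, with a log2 fold change of -0.88 (edgeR adjusted p = 0.0805), or -0.54 with the trend removed. Ric8a, the chaperone of Gi, Gq and G12 class alpha subunits, had 0.43 (adjusted p = 0.303) and Nucb1 0.51 (adjusted p = 0.471), or 0.10 and 0.34 with the trend removed.

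Downstream of Gs and Gi come the cyclic AMP genes, whose counts are read against the same 7.9% and 8.71% of all tested genes. Of 10 adenylyl cyclase genes, 2 passed the filter, with a median log2 fold change of -0.17 that was -0.48 with the trend removed. Of these, Adcy7, a cyclase of blood cells, was at 0.08 (edgeR adjusted p = 0.882), and -0.09 with the trend removed. Of 10 tested genes for protein kinase A, its anchors and EPAC, 0 had an unadjusted p under 0.05, with a median of -0.06. Akap10 had -0.42 (adjusted p = 0.346), Prkar1a -0.32 (adjusted p = 0.367) and Prkar2b -0.30 (adjusted p = 0.494). Removing the trend gave -0.31, -0.19 and -0.10 in the same order.

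Phosphodiesterases break cyclic AMP down, and of 10 tested 1 was lower and 0 higher, with a median of 0.25 that was 0.06 with the trend removed. That gene was Pde7b, with 68.25, 90.3 and 97.4 CPM in P1, P2 and P3, and 160.5, 121 and 127 CPM in N1, N2 and N3. No library overlapped with the other medium, at a log2 fold change of -0.67 (edgeR adjusted p = 0.109), and -0.58 with the trend removed. Pde1b had 0.46 (adjusted p = 0.336) and Pde7a 0.90 (adjusted p = 0.337), which were 0.21 and 1.06 with the trend removed.

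CREB is the transcription factor that protein kinase A activates. Of 10 tested CREB family and coactivator genes 1 was higher and 2 lower by unadjusted p. Their median was -0.09, and -0.0009 with the trend removed. The coactivator gene Crtc2 had a log2 fold change of 0.67 (edgeR adjusted p = 0.21), Crem -0.57 (adjusted p = 0.226) and Crebbp -0.34 (adjusted p = 0.282). With the trend removed Crtc2 was at 0.26, Crem at -0.36 and Crebbp at -0.48. Of 10 tested genes known to be induced by cyclic AMP, 2 had a positive log2 fold change and 1, Fosl2, was lower by unadjusted p. Fosl2 had 126, 255 and 203 CPM in P1, P2 and P3, and 379, 200.2 and 346.5 CPM in N1, N2 and N3. N2 lay among the HTR2C-positive libraries, and the log2 fold change was -0.66 (edgeR adjusted p = 0.234), and -0.90 with the trend removed. The median of these genes was -0.23, and -0.30 with the trend removed.

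Under Gq, 17 genes for phospholipase C beta, IP3 receptors and calcium handling were tested. Of these 1 was higher and 0 lower by unadjusted p, with a median of 0.15 that was 0.08 with the trend removed. The 1 was Orai1, the pore of the store-operated calcium channel. It had 7.82, 12.5 and 11.1 CPM in P1, P2 and P3, and 4.95, 5.29 and 6.52 CPM in N1, N2 and N3. Every HTR2C-positive library was higher, with a log2 fold change of 0.90 (edgeR adjusted p = 0.134) and 0.52 with the trend removed. Prkcd, a diacylglycerol-activated kinase gene, had 0.50 (adjusted p = 0.305) and the calcium sensor gene Stim2 0.41 (adjusted p = 0.316), or 0.35 and 0.46 with the trend removed.

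Under the G12 class, 17 RhoGEF, RhoA and ROCK pathway genes were tested, with 1 higher and 1 lower and a median of 0.14 that was -0.08 with the trend removed. Rock1, a kinase that RhoA activates to drive contraction, had 285, 346 and 374 CPM in P1, P2 and P3, and 794, 500.0 and 659 CPM in N1, N2 and N3. Its groups were far apart, with a log2 fold change of -0.96 (edgeR adjusted p = 0.0805) and -0.69 with the trend removed. Arhgdia had 178, 60.95 and 62.6 CPM in P1, P2 and P3, and 24.75, 57.2 and 37.3 CPM in N1, N2 and N3. P1 stood far above the rest and N2 just under P2, at a log2 fold change of 1.33 (edgeR adjusted p = 0.133), and 0.89 with the trend removed. Mrtfb, a coactivator that responds to actin, had -0.44 (adjusted p = 0.324), and -0.49 with the trend removed.

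Genes that act under the beta-gamma pair, with Rac GTPases among them, were mostly on the positive side. Of 11 tested genes 10 had a positive log2 fold change, with a median of 0.32 and 0.29 with the trend removed, while 1 was higher and 0 lower by unadjusted p. Rac2, a GTPase of blood cells that drives migration and the oxidative burst, had 617, 497 and 419 CPM in P1, P2 and P3, and 354, 421.5 and 361 CPM in N1, N2 and N3. P3 and N2 overlapped, and the log2 fold change was 0.43 (edgeR adjusted p = 0.234), and 0.29 with the trend removed. Prex1, an exchange factor for Rac that beta-gamma activates, had 0.58 (adjusted p = 0.302) and Rac1 0.45 (adjusted p = 0.331), which were 0.15 and 0.48 with the trend removed.

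Receptors were listed by the class they mainly use. Of 20 tested Gi-coupled chemoattractant receptor genes 1 was higher and 2 lower by unadjusted p, with a median of -0.06 that was 0.17 with the trend removed. Ccr1, a receptor of inflammatory chemokines, had 115, 134.5 and 126 CPM in P1, P2 and P3, and 207, 154 and 186 CPM in N1, N2 and N3. Every HTR2C-positive library was lower, at a log2 fold change of -0.54 (edgeR adjusted p = 0.132) that was -0.16 with the trend removed. P2ry14 had -0.50 (adjusted p = 0.251) and the complement receptor gene C3ar1 -0.29 (adjusted p = 0.335), which were -0.42 and -0.07 with the trend removed. The 1 with higher values was P2ry13, named after its values were seen because it lay under 2 CPM, with 41, 21 and 26 counts in P1, P2 and P3 and 7, 15 and 6 counts in N1, N2 and N3. Its log2 fold change was 1.36 (SE 0.58, edgeR adjusted p = 0.265), and 1.58 with the trend removed.

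Of 8 tested Gs-coupled receptor genes 2 were higher and 0 lower by unadjusted p, with a median of 0.31. Adora2a, an adenosine receptor gene, had 80.2, 33.35 and 33.7 CPM in P1, P2 and P3, and 19.6, 37.0 and 23.0 CPM in N1, N2 and N3. P1 was high and N2 exceeded P2 and P3, at a log2 fold change of 0.89 (edgeR adjusted p = 0.207), and 0.43 with the trend removed. The prostacyclin receptor gene Ptgir had 0.65 (adjusted p = 0.265) and Calcrl -0.31 (adjusted p = 0.439). With the trend removed Ptgir was at 0.40, and Calcrl turned its sign, at 0.02.

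Of 8 tested Gq-coupled receptor genes 1 was higher and 2 were lower by unadjusted p. Their median was 0.04, and -0.04 with the trend removed. Ednrb, an endothelin receptor gene, had 35.15, 33.4 and 49.75 CPM in P1, P2 and P3, and 78.5, 54.45 and 63.5 CPM in N1, N2 and N3. Both groups were apart, at a log2 fold change of -0.73 (edgeR adjusted p = 0.113), and -0.53 with the trend removed. P2ry2, a receptor gene for extracellular ATP, had 0.55 (adjusted p = 0.176) and the leukotriene receptor gene Cysltr1 -0.45 (adjusted p = 0.228), which were 0.17 and -0.11 with the trend removed.

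Among 5 tested receptor genes that use the G12 class, the median was 0.26, and 0.13 with the trend removed. By unadjusted p 1 was higher and 0 lower. That gene was the sphingosine 1-phosphate receptor gene S1pr3, also under 2 CPM and named after its values were seen. It had 54, 26 and 31 counts in P1, P2 and P3 and 5, 20 and 7 counts in N1, N2 and N3, a log2 fold change of 1.52 (SE 0.58, edgeR adjusted p = 0.216), or 1.41 with the trend removed. Among those with a mean of at least 2 CPM, the lysophosphatidic acid receptor gene Lpar1 had -0.28 (edgeR adjusted p = 0.347), Gpr132 0.46 (adjusted p = 0.549) and S1pr2 0.26 (adjusted p = 0.647). With the trend removed these were -0.17, 0.25 and 0.13.

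**Figure D5:**
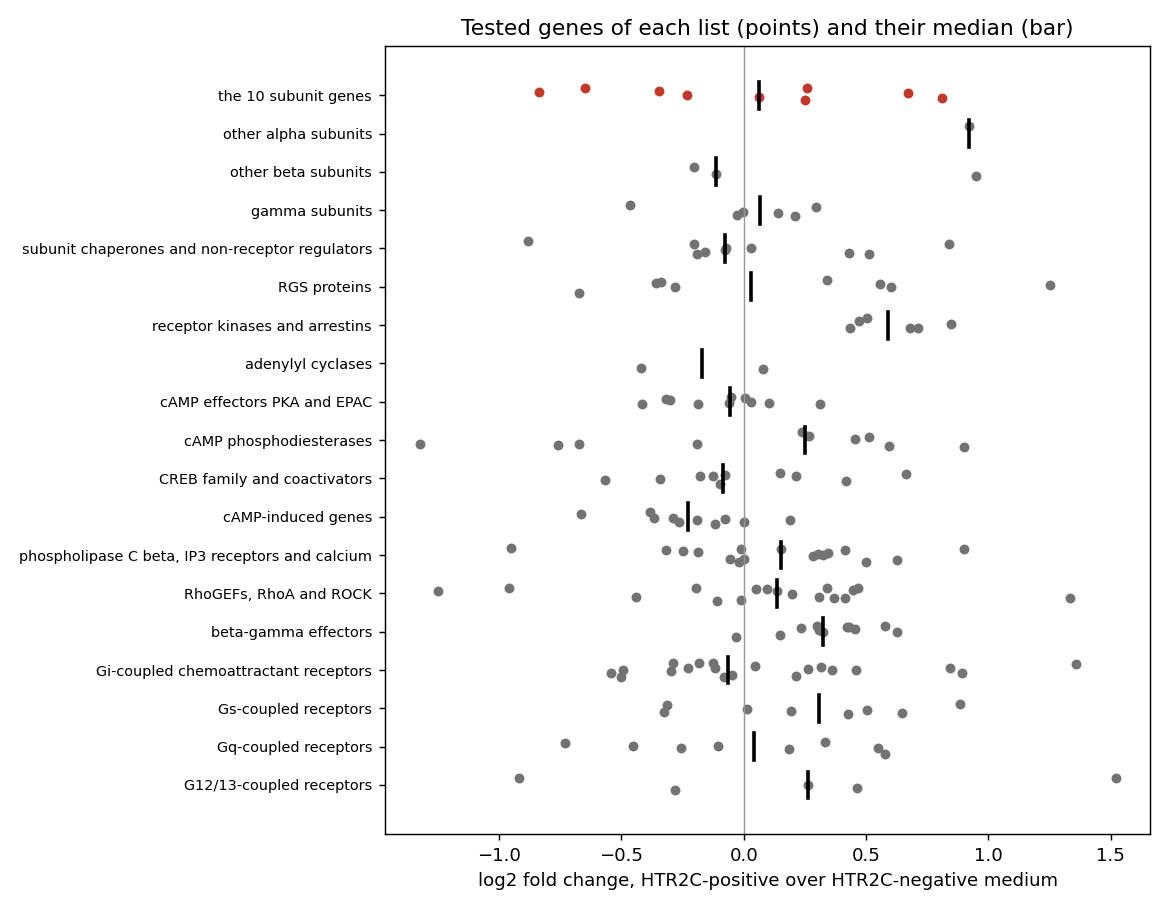
Log2 fold change, HTR2C-positive over HTR2C-negative medium, of each tested gene (points) and the median (bar) of each list, one row per list. The top row in red holds the 9 tested of the 10 subunit genes, and the row of receptor kinases and arrestins has all 6 points to the right of 0.

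Promoter windows from RefSeq (GRCm38.p6), from 250 bases before to 50 bases after the start, matched 9 of the 10 genes. Gnai2 had no window and was not searched, while Gnai1, which was not tested for the medium, was searched. The window of Gnai3 is shown in lower case, since none of the letters searched occurs in it. Gnai3 had the log2 fold change of largest size among the 9 genes tested for the medium.
Gnai3 (chr3:108146103-108146402, minus strand): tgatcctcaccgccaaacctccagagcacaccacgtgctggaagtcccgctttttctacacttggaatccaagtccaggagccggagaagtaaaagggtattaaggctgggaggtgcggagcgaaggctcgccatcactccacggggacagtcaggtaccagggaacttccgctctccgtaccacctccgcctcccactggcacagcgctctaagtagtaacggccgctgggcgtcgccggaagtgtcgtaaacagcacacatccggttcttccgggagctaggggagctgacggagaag

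The letters searched, on both strands, were GGGCGG, the GC box, and TGACGTCA, the cyclic AMP response element. The GC box was in a window of 7 of the 9 genes with a window, all but Gnai3 and Gna15, and for Gnas in 2 of its 4 windows. It was in 35.7% of all 32851 windows of the same length, which is a share of windows and not of genes. The cyclic AMP response element was in a window of 0 of the 9 genes and in 1.8% of all windows. GC content was 59.3% in the Gnai3 window, the lowest among the windows of the 9 genes, and 81.7% in the highest, a Gnas window. The median over all windows was 52.7%, and the part of base composition in the GC box count was not tested.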

How the data were processed

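The data were RNA-seq read counts of bone marrow-derived macrophages, with 3 samples for each medium as labelled. Per the labels' protocols, Trizol served for RNA extraction and the VAHTS Universal V6 kit for the libraries. Among the tools in the submitters' processing notes are HISAT2, StringTie, fastp and edgeR, with GRCm39 as build and no versions. Neither the counting rules nor the annotation is given in the sources used here. Deposited counts are whole, unnormalized reads per gene. The FPKM values deposited by the authors equal count over length and library total (largest relative difference 3.80e-07).

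From the counts, R 4.3.3 with edgeR 4.0.16 kept genes passing filterByExpr, applied TMM factors and ran the robust quasi-likelihood F test without covariates, adjusted by Benjamini-Hochberg over 10177 genes. The script was checked on simulated counts. Alternatives were RLE factors, total counts, other count filters, limma-voom (limma 3.58.1), DESeq2 1.42.0, a block for the replicate number, removal of each library's spline trend with GC content and length, and left-out libraries. GC content came from GENCODE M21 transcripts matched by gene ID and covered 99.9% of tested genes. Class shares used deposited FPKM. Library totals limit precision to counting error at best.

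The genes and the lists were chosen with earlier results of these data known. Named genes are the 10 subunit genes, the other tested subunit genes, up to 3 genes with the smallest unadjusted p and a mean of at least 2 CPM from each list described, and Htr2c, Adgre1, Csf1r and Itgam.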

Additional observations from a re-analysis of the deposited data

How the results depend on the processing

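Over the alternatives run, 169 of 180 values for the 9 tested subunit genes, the class shares and the ratio of Gnai2 to Gnai3 kept their sign. Gna15 was negative with limma-voom, the block, the GC and length trend removed, and without P1, without N1 or without N2 and P1. Gna12 was negative in both fits with that trend removed, and the Gq share without P1 and with counts in place of FPKM. Scaling to total counts alone moved the median log2 fold change of all tested genes to 0.16, which left Gnai2 at 0.78, Gnai3 at -0.69 and Gna13 at 0.39. On that scale 5 of the 9 tested subunit genes, Gna13 and Gnb1 among them, did not overlap between the media, beside 21.3% of all tested genes. That count was 7 without N2 and P1, where 52.5% of all tested genes did not overlap, and 3 to 5 with 1 library left out, where 27.1% to 39.9% did not. Fewer libraries make such gaps more common, so these counts are not set against the 22.3% of all 6 libraries. Genes with an adjusted p under 0.05 numbered 422 without a count filter, 394 with DESeq2, 1107 without N2 and P1, and 0 to 206 with 1 library left out, the highest being 206 without N2 and 186 without P1. Genes with an unadjusted p under 0.05 numbered 986 with the trend removed and 847 (without N1) to 2097 (without N2) with 1 library left out. The cause was not tested.

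Deviations from the group mean of P1 and N1, P2 and N2, and P3 and N3 correlated at -0.216, -0.32 and 0.0844 across genes. The highest correlation between the media was 0.403, for P1 and N2. The labels do not say whether replicate numbers pair the samples, and these correlations cannot settle it. With the replicate number as a block, 0 genes passed the adjusted and 1175 the unadjusted threshold, and 652 the latter with the GC and length trend removed as well. Gnas rests on 10 to 21 counts per library and Gnai1 on 0 to 3, which limits both. The removal of the trend from the ratio was added after seeing the data.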
